A study of Homo sapiens with 8 samples.

Results

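Complement is a set of blood and tissue proteins that mark particles for uptake, and macrophages both make several of its components and carry receptors for its products. Here 9 complement genes that macrophages express were followed in foam cells treated with auranofin: the C1q chain genes C1QA, C1QB and C1QC, the component genes C2, C3, CFB and CFP, and the anaphylatoxin receptor genes C3AR1 and C5AR1. They were taken by symbol from the 62700 rows of the deposited count table, and each of the 9 symbols had 1 row. The classical pathway starts when C1q, a protein built from A, B and C chains, binds a target, and C2 and C4 then supply the enzyme that cleaves C3. Factor B and properdin, the products of CFB and CFP, serve the alternative pathway. The small fragments C3a and C5a, released by cleavage, act on C3AR1 and C5AR1, and in arterial lesions macrophages are a known local source of C1q.

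The cells were THP-1, a human monocytic leukaemia line, differentiated to macrophages with the phorbol ester PMA at 50 ng/mL for 72 h and loaded with acetylated LDL (AcLDL) for 48 h, which fills them with cholesteryl esters. Poly-A RNA was sequenced from 4 libraries of foam cells given 0.5 µM auranofin (FCs+AF, here AF), a gold-containing drug whose known target is the enzyme thioredoxin reductase, and from 4 libraries of foam cells given the vehicle DMSO (FCs+DMSO, here DMSO). PMA and AcLDL were common to both groups, and no cells without AcLDL or without PMA entered the comparison. The sample protocol has drug or vehicle added 24 h ahead of the lipoprotein and kept on, while the design text of the series has it follow the loading. No label gives a separate culture for each library, and the library names share stems in pairs (replicates 1 and 2, and 3 and 4), so each p-value weighs a difference against library-to-library spread alone, and that spread may be technical.

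The libraries held 24522949 to 32325981 counts in AF and 19336073 to 27278947 in DMSO. AF replicate 1 stood apart, with 34.8% of its counts in ribosomal RNA, against 0.743% to 0.963% in the other 7 libraries, and values without it are given below. Of 12 macrophage markers, 12 were measurable, and their summed level was 4309 to 4754 CPM (counts scaled to a common library size, with factors for RNA composition) in AF and 4784 to 5618 CPM in DMSO, with 3 markers called higher and 4 lower with auranofin. LYZ carried the difference in the sum, and without it the sum was 3495 to 3974 CPM in AF and 3447 to 4007 CPM in DMSO. Among all genes tested, 7.62% were called higher and 7.81% lower, beside the 3 and 4 of these 12 markers. Markers of other cell types summed to 0.425 to 0.978 CPM in AF and 0.240 to 1.23 CPM in DMSO for B cells, and to 0.741 to 1.59 CPM in AF and 1.41 to 2.55 CPM in DMSO for fibroblasts. For hepatocytes they summed to 11.4 to 12.4 CPM in AF and 9.18 to 10.9 CPM in DMSO, and for T and NK cells to 14.7 to 18.5 CPM in AF and 18.9 to 23.3 CPM in DMSO. NKG7 supplied most of the T and NK sum and SERPINA1 most of the hepatocyte sum, while MS4A1, FGB and COL1A2 had 0 counts in each library. The part of these marker shifts in the results below was not tested.

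With auranofin the C1q chain genes and C3AR1 fell and C5AR1 rose, while C2, C3 and CFP did not pass the test and CFB was too low to test. Of the 9 genes 8 passed the filter on low counts, and 4 of them fell and 1 rose at an adjusted p under 0.05 (edgeR's quasi-likelihood test with Benjamini-Hochberg adjustment over the 17535 genes tested). Among all genes tested, 7.81% fell and 7.62% rose by the same rule, 15.4% in either direction. The median log2 fold change of the 8 genes was -0.50, and that of all genes tested 0.005. The AF and DMSO libraries did not overlap for the same 5 genes, against 19.5% of all genes tested (9.86% with all AF libraries above all DMSO libraries and 9.68% with all AF below). In bulk RNA, a change in the number of cells that express a gene and a change in RNA per cell cannot be told apart.

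**Figure D1:**
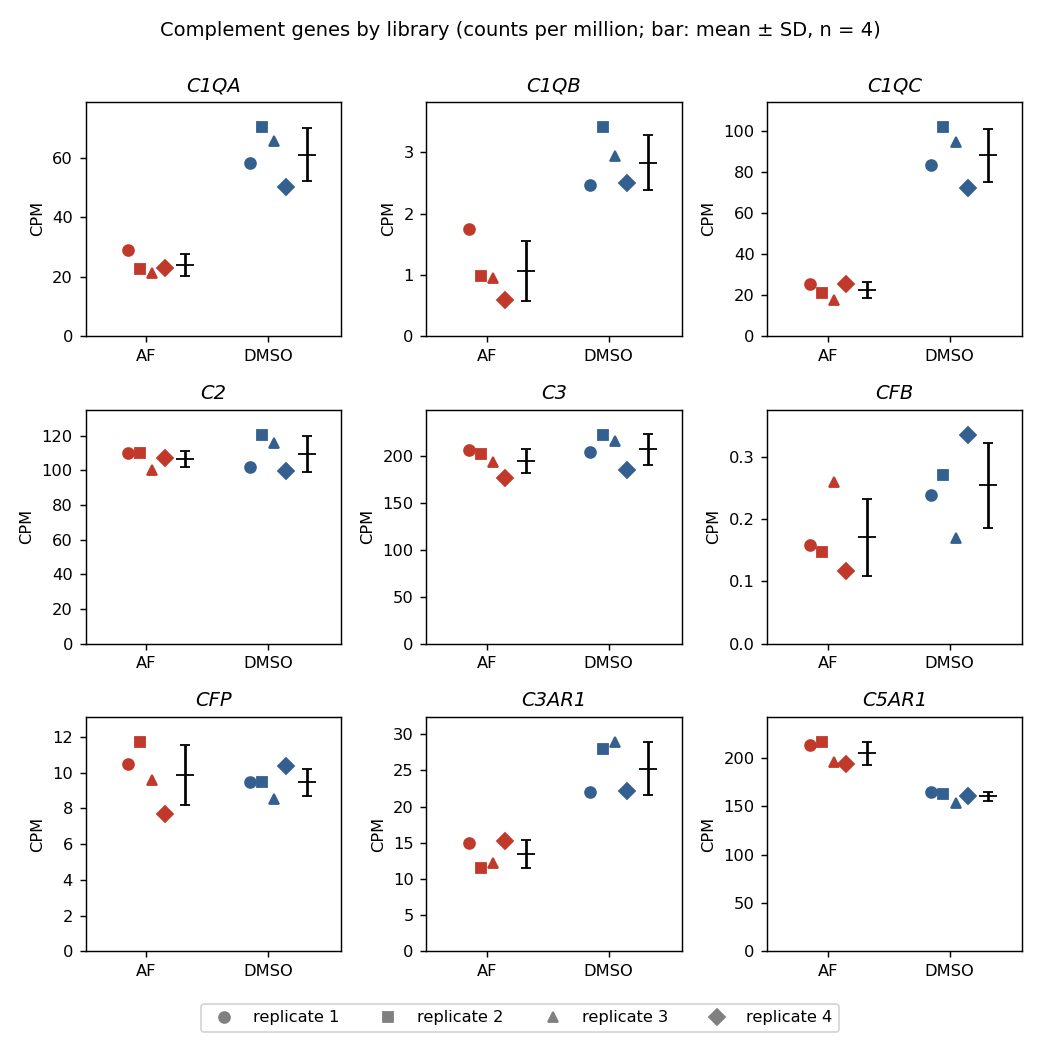
Level of each of the 9 complement genes in CPM (vertical axis, from 0) in the 4 AF and the 4 DMSO libraries, with a marker shape for each replicate number and the mean ± SD beside each group. For C1QA, C1QB, C1QC and C3AR1 all AF libraries lie below all DMSO libraries, and for C5AR1 all lie above them.

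C1QC fell most of the 8 genes tested. C1QC, which encodes the C chain of C1q, had 25.4, 20.8, 17.3 and 25.2 CPM in the AF libraries (replicates 1 to 4, the order used throughout) and 83.3, 101.8, 94.5 and 72.1 CPM in the DMSO libraries. All AF values were under all DMSO values, and within AF replicate 3 was the lowest. The means were 22.2 ± 3.88 CPM in AF and 87.9 ± 12.99 CPM in DMSO (SD, n = 4 each), a log2 fold change of -1.99 ± 0.12 (SE; adjusted p = 1.706e-07, edgeR). The AF level was 25.1% of the DMSO level, with a 95% interval of 0.21 to 0.301 for the fold. By size of fall C1QC ranked 17 among the 17535 genes tested, C1QB 58 and C1QA 76.

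C1QA, for the A chain, had a smaller estimated fall. Its levels were 29.1, 22.6, 21.1 and 22.9 CPM in the AF libraries, against 58.3, 70.5, 65.7 and 50.25 CPM in the DMSO libraries. AF replicate 1, the library rich in ribosomal RNA, had the highest of the AF values, still below each DMSO value. The log2 fold change was -1.36 ± 0.11 (adjusted p = 4.39e-06, edgeR), which puts the AF level at 39.0% of that in DMSO. Without AF replicate 1 it was -1.47 for C1QA and -2.07 for C1QC.

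C1QB, for the B chain, had few reads and a less certain change. It had 33, 33, 29 and 15 counts in the AF libraries, against 72, 88, 69 and 52 counts in the DMSO libraries. As CPM these were 1.751, 0.978, 0.943 and 0.585 in AF, against 2.46, 3.41, 2.94 and 2.498 in DMSO, again without overlap. C1QB fell by 1.45 ± 0.26 on the log2 scale (adjusted p = 0.00168, edgeR), and by 1.74 without AF replicate 1. In GENCODE 29 no other gene overlapped its exons on either strand, and the cause of its low count beside those of its neighbours was not tested. The C1q chain genes lie together on chromosome 1 of GRCh38 on the plus strand, C1QA (ENSG00000173372.16) from 22636506 to 22639608, C1QC (ENSG00000159189.11) from 22643630 to 22648110 and C1QB (ENSG00000173369.15) from 22652762 to 22661538, and counts were per gene over exons.

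Libraries of equal number differed in the size of these falls. In libraries 2 and 3 of each group alone C1QA, C1QB and C1QC had log2 fold changes of -1.64, -1.72 and -2.36, and in libraries 1 and 4 alone -1.07, -1.15 and -1.62. This division was seen in the counts and is not in the labels. In libraries 1 and 4 alone the call of C1QB was lost (adjusted p = 0.244, edgeR), while those of C1QA (0.003193) and C1QC (4.978e-05) held. Over all genes 212 were called in libraries 1 and 4 alone, against 2705 with all 8 libraries, so most calls ended there.

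A ratio of 2 genes within a library does not depend on how libraries are scaled. Per kb of merged exon, the log2 ratio of C1QA to C1QC was 0.27, 0.19, 0.36 and -0.07 in the AF libraries and -0.45, -0.46, -0.46 and -0.45 in the DMSO libraries. C1QC was thus the higher of the pair in all 4 DMSO libraries and in AF replicate 4, and C1QA was the higher in the other 3 AF libraries. The AF ratio exceeded the DMSO ratio by 0.64 ± 0.09 (SE; exact two-sided permutation test, p = 0.02857, the smallest that 4 against 4 libraries allow). Adjusted over the 6 ratios tested it did not pass (0.08571, the smallest adjusted value reached). The log2 ratio of C1QA to C1QB averaged 4.92 ± 0.51 in AF and 4.77 ± 0.11 in DMSO (SD, n = 4 each; exact permutation test, p = 0.6857), and that of C1QB to C1QC -4.74 ± 0.68 in AF and -5.22 ± 0.10 in DMSO (exact permutation test, p = 0.1714).

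**Figure D2:**
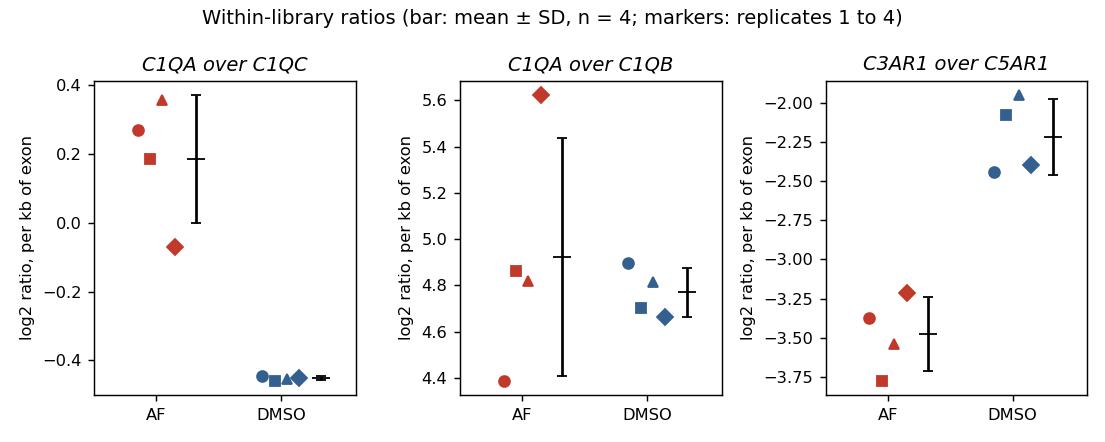
Log2 ratio of counts per kb of exon between a pair of genes in the same library (vertical axis, own scale in each panel) for the 4 AF and the 4 DMSO libraries, with mean ± SD. C1QA over C1QC lies at -0.07 to 0.36 in AF and at -0.46 to -0.45 in DMSO, and C3AR1 over C5AR1 lies lower in each AF library than in each DMSO library.

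The component genes C2 and C3 were expressed in both groups at close levels. C3 encodes the central component on which all pathways converge. Its levels were 206.6, 201.5, 193.8 and 176.4 CPM in the AF libraries, against 203.9, 222.7, 216.2 and 184.5 CPM in the DMSO libraries. The groups overlapped, and the log2 fold change of -0.09 ± 0.07 did not pass (adjusted p = 0.4153, edgeR), with a 95% interval of -0.23 to 0.06. C2, the protease precursor of the classical and lectin pathways, had 110.1, 109.9, 100.2 and 107.2 CPM in AF and 101.7, 120.7, 116.1 and 99.7 CPM in DMSO. Its log2 fold change was -0.04 ± 0.07 (adjusted p = 0.7588, edgeR), with a 95% interval of -0.18 to 0.11. In libraries 2 and 3 of each group alone, a subset drawn with the counts in view, both genes were called lower. The log2 fold changes there were -0.17 for C2 (adjusted p = 0.02009, edgeR) and -0.15 for C3 (adjusted p = 0.02403). Of all genes, 5354 were called in that subset, against 2705 with all libraries. In libraries 1 and 4 alone they were 0.10 for C2 and -0.03 for C3, and neither passed. Neither gene passed in any fit that left out 1 library. C3 (ENSG00000125730.16) lies on chromosome 19 from 6677704 to 6730562, and C2 (ENSG00000166278.14) on chromosome 6 from 31897785 to 31945672, where 5.42% of its exon bases face exons of the other strand, C2-AS1 among them.

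CFP and CFB serve the alternative pathway. CFP encodes properdin, which stabilises that pathway's C3-cleaving enzyme. It had 10.5, 11.7, 9.60 and 7.68 CPM in the AF libraries and 9.51, 9.47, 8.51 and 10.4 CPM in the DMSO libraries, so that AF held both the highest and the lowest values. The log2 fold change was 0.06 ± 0.12 (adjusted p = 0.7704, edgeR), with a 95% interval of -0.20 to 0.32. CFB, for factor B, had 3, 5, 8 and 3 counts in the AF libraries and 7, 7, 4 and 7 in the DMSO libraries, and did not pass the filter. With no filter its log2 fold change was -0.53 ± 0.64 (adjusted p = 0.6629, edgeR). CFB (ENSG00000243649.8, chromosome 6 from 31945650 to 31952084) and C2 adjoin, and another gene of the same strand, AL645922.1, shares exons with both: 78.6% of the bases of the longest coding transcript of CFB and 64.7% of those of C2 lie in exons of another gene of that strand. The row of that gene had 0 to 5 counts. How overlapping reads were assigned is not given in the sources used here, so how far the low count of CFB reflects a low level of its RNA was not tested. Over merged exons 45.5% of the bases of CFB and 33.3% of those of C2 are shared on that strand, and C2 had 2075 to 3705 counts. CFP (ENSG00000126759.13) lies on chromosome X from 47623172 to 47630305.

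The anaphylatoxin receptor genes moved in opposite directions. C3AR1, for the receptor of C3a, stood at 14.9, 11.5, 12.2 and 15.2 CPM in the AF libraries, against 22.0, 28.01, 28.9 and 22.1 CPM in the DMSO libraries. Replicates 1 and 4 were nearer to each other across the groups than replicates 2 and 3 were. C3AR1 fell by 0.91 ± 0.13 on the log2 scale (adjusted p = 0.0002414, edgeR), and by 0.97 without AF replicate 1. Its log2 fold change was -0.55 in libraries 1 and 4 of each group alone (adjusted p = 0.04406) and -1.26 in libraries 2 and 3 alone.

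C5AR1, for the main receptor of C5a, had 213.1, 216.1, 195.3 and 194.1 CPM in the AF libraries, against 164.5, 162.5, 153.6 and 160.1 CPM in the DMSO libraries. The lowest AF value was above the highest DMSO value. C5AR1 rose by 0.35 ± 0.05 on the log2 scale (adjusted p = 0.0005643, edgeR), a fold of 1.28 with a 95% interval of 1.18 to 1.38, and by 0.33 without AF replicate 1. Scaled by library totals alone, the log2 fold change was 0.20 and the call was lost (adjusted p = 0.6279), in a setting where the median of all genes was -0.15. It was also lost in libraries 1 and 4 alone (0.32, adjusted p = 0.1106), where 212 genes of all were called, against 2705. The log2 ratio of C3AR1 to C5AR1 was -3.38, -3.78, -3.54 and -3.21 in the AF libraries and -2.44, -2.08, -1.95 and -2.397 in the DMSO libraries. The difference of -1.26 ± 0.17 had an exact two-sided permutation p of 0.02857, and 0.08571 adjusted over the 6 ratios. The ratios of C3 to CFB and of C2 to CFB, which rest on single-digit counts, completed the 6 and had exact permutation p of 0.2286 each. C3AR1 (ENSG00000171860.4) lies on chromosome 12 from 8058302 to 8066471 on the minus strand, and C5AR1 (ENSG00000197405.7) on chromosome 19 from 47290023 to 47322066.

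**Figure D3:**
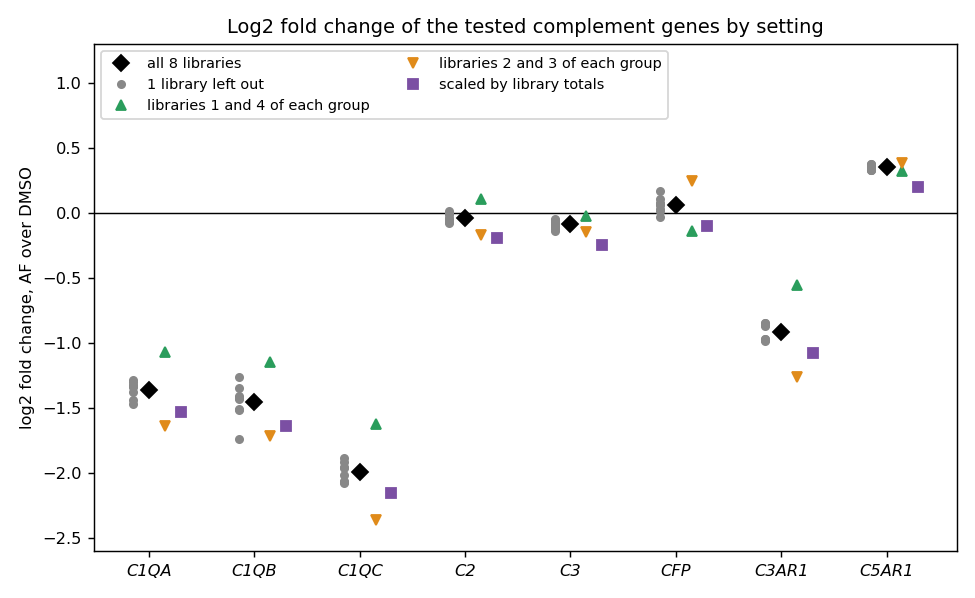
Log2 fold change of AF over DMSO (vertical axis) for the 8 tested genes with all 8 libraries (black), with 1 library left out (grey), in libraries 1 and 4 or 2 and 3 of each group, and scaled by library totals. C1QA, C1QB, C1QC and C3AR1 stay below 0 and C5AR1 above 0 at each setting drawn, while C2 and CFP cross 0.

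The sequence before the start of a gene is where many of its regulators bind. RefSeq starts (GRCh38.p14) were at hand for 7 of the 9 genes, with 10 entries, and not for C1QC and C3. The lines below give the stretch before the start for C1QA and C3AR1, which fell, and C5AR1, which rose, 5′ to 3′ on the strand of the gene, with motif matches in capitals. The C3AR1 window is cut to 138 bases, since the other 112 are exon in GENCODE 29, and that of C1QB is not shown because it lies in an exon.
C1QA (chr1:22636213-22636462, plus strand): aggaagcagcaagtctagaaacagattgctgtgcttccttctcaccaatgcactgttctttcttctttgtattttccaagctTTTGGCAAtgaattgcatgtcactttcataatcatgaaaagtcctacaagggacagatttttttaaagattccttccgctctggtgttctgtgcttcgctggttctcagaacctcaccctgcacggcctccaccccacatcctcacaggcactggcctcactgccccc
C3AR1 (chr12:8066472-8066609, minus strand): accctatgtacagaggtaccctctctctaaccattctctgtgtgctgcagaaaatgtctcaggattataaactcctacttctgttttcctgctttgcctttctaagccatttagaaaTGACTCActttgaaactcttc
C5AR1 (chr19:47309611-47309860, plus strand): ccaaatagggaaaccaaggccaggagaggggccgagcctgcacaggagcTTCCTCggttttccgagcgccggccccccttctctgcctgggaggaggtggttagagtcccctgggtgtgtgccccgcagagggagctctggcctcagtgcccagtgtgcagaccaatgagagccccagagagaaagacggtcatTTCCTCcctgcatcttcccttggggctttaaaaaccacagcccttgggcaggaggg
The capitals mark a C/EBP motif (TTGCNNAA) in C1QA, an AP-1 motif (TGANTCA) in C3AR1 and the core of the PU.1 motif (GAGGAA) at 2 places in C5AR1, all searched on both strands over 250 bases, and no matches overlapped. Among 35116 RefSeq windows of that length, 9.05% held the C/EBP motif, 6.57% the AP-1 motif and 23.6% the PU.1 core. The C/EBP motif also matched in C1QB, and the PU.1 core at 2 places in an entry of CFP, which did not pass the test. The half-site of MAF factors (TGCTGAC, in 3.43% of windows) and the interferon-stimulated response element (in 3.02%) had no match in the C1QA, C1QB, C3AR1 and C5AR1 windows; the first matched in an entry of CFP and the second in that of CFB. A match is only a run of letters in this window, and its absence says nothing about binding.

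Levels can be compared between genes only per length. In DMSO the levels in CPM per kb of merged exon were 65.9 ± 9.73 for C1QC, 54.3 ± 1.61 for C5AR1 and 48.1 ± 6.97 for C1QA (SD, n = 4). The ranges of C1QC (54.0 to 76.2) and C5AR1 (52.1 to 55.8) overlapped, as did those of C5AR1 and C1QA (39.5 to 55.5). With the length of the longest transcript C5AR1 (66.5 to 71.2) and C1QA (44.0 to 61.7) were apart. Below these were C3 at 24.8 ± 2.02 and C2 at 19.8 ± 1.88, whose ranges were apart, then C3AR1 at 11.8 ± 1.73. With the longest transcript the ranges of C3 (35.1 to 42.3) and C2 (34.99 to 42.3) coincided, and the level of C2 also carries the doubt about exons shared with another gene. C1QB (1.77 ± 0.28) and CFP (1.69 ± 0.14) overlapped near the bottom, and CFB stood at 0.0509 ± 0.0138.

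With auranofin the order of levels differed. In AF, C5AR1 was first at 69.4 ± 3.92 CPM per kb, followed by C3 at 23.4 ± 1.58, C2 at 19.3 ± 0.83, C1QA at 18.8 ± 2.79 and C1QC at 16.6 ± 2.90. The C1QA range (16.6 to 22.9) overlapped those of C3 (21.2 to 24.8), C2 (18.1 to 19.9) and C1QC (12.96 to 19.0), so these neighbours are not ordered beyond their spread. C3AR1 was at 6.27 ± 0.88, CFP at 1.76 ± 0.30, C1QB at 0.665 ± 0.307 and CFB at 0.0343 ± 0.0124. With the length of the longest transcript in place of merged exons, C2 (37.5) and C3 (37.0) stood well above C1QA (20.9) and C1QC (18.8) in AF.

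Among 45 other complement genes, sorted by role into 5 lists, 25 were tested, of which 5 rose, 3 fell and 17 did not pass, with a median log2 fold change of 0.19. Over all genes tested, 7.62% rose and 7.81% fell. The 20 not tested had too few counts, among them the C1q partner proteases C1R (0 to 11 counts) and C1S (1 to 12 counts), named after their values were seen. Membrane and fluid-phase regulators had 2 called genes among 6 tested, both higher. CLU, for clusterin, which binds terminal complexes, averaged 5.44 ± 0.79 CPM in AF and 2.78 ± 0.40 CPM in DMSO (SD, n = 4 each), a rise of 0.96 ± 0.15 on the log2 scale (adjusted p = 0.0008023, edgeR). CD55, the decay-accelerating factor that dismantles C3-cleaving enzymes, had 73.0, 77.7, 83.1 and 85.5 CPM in AF and 51.1, 47.1, 45.6 and 60.2 CPM in DMSO, a rise of 0.65 ± 0.08 (adjusted p = 0.0001189). For neither gene did the groups overlap. In libraries 1 and 4 alone the calls of CD55 (adjusted p = 0.09483) and CLU (0.08292) were lost. The log2 fold changes there were 0.51 for CD55 and 0.97 for CLU, and 212 genes of all were called, against 2705. The call of CD55 was also lost with library totals alone (0.06769), where the median log2 fold change of all genes was -0.145. CD46 and CD59, the other membrane regulators, named after their values were seen, had log2 fold changes of 0.22 ± 0.08 and 0.26 ± 0.09 and did not pass (adjusted p = 0.06416 and 0.05881, edgeR); both passed in DESeq2 (0.03443 and 0.009654).

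Other receptors for complement fragments were split, with 3 of 10 tested genes higher and 2 lower, where 7.62% of all genes tested rose and 7.81% fell. The integrin chain genes ITGAX and ITGAM, whose products form the iC3b receptors with ITGB2, rose by 0.69 ± 0.09 and 0.43 ± 0.07 on the log2 scale (adjusted p = 0.0001556 and 0.0008188, edgeR). With library totals alone both calls were lost, with log2 fold changes of 0.54 for ITGAX (adjusted p = 0.07149) and 0.28 for ITGAM (0.4791). ITGAX was at 480.9, 552.3, 527.1 and 406.6 CPM in AF and 299.4, 326.1, 313.6 and 283.2 CPM in DMSO. CALR, for calreticulin, a chaperone that also binds C1q, rose by 0.25 ± 0.07 (adjusted p = 0.03449), a call lost without AF replicate 2 or 3 or any 1 of the 4 DMSO libraries (adjusted p = 0.0727 to 0.1028). CD93, first described as a C1q receptor, fell by 0.46 ± 0.06 (adjusted p = 0.0002138), to 132.3 to 137.2 CPM in AF, against 170.9 to 202.5 CPM in DMSO. C1QBP, a mitochondrial protein that binds C1q, fell by 0.45 ± 0.08 (adjusted p = 0.001375), with 28.3 to 31.1 CPM in AF and 38.4 to 42.2 CPM in DMSO. Both calls were lost in libraries 1 and 4 alone (adjusted p = 0.06972 for CD93 and 0.07454 for C1QBP). Of all genes, 212 were called there, against 2705 with all libraries. The complement receptor genes CR1 and VSIG4 and the second C5a receptor gene C5AR2, named after their values were seen, had log2 fold changes of 0.21 ± 0.10, -0.22 ± 0.12 and -0.19 ± 0.10 and did not pass (adjusted p = 0.1681, 0.241 and 0.207, edgeR), nor did ITGB2 (0.27 ± 0.09, adjusted p = 0.05345), which did in DESeq2 (0.002954).

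Of the early and late components, 6 classical and lectin, 1 alternative and 2 terminal pathway genes were tested, and 1 was called. With so few genes this cannot be told from the 15.4% of all genes tested that were called in either direction. Of 6 classical and lectin pathway genes tested, COLEC12, a collectin that is also a scavenger receptor, fell by 0.31 ± 0.07 (adjusted p = 0.01071, edgeR), with 76.02 to 94.6 CPM in AF and 99.2 to 109.6 CPM in DMSO. The call was lost with library totals alone (adjusted p = 0.1037) and in libraries 1 and 4 alone (log2 fold change -0.12, adjusted p = 0.6831). Of all genes, 883 were called with library totals alone and 212 in libraries 1 and 4 alone, against 2705. C4A and C4B, named after their values were seen, are near-identical copies that may share reads, and had log2 fold changes of 0.19 ± 0.24 and 0.19 ± 0.25 (adjusted p = 0.6275 and 0.6514). With 1 library left out these ran from 0.04 to 0.37 for C4A and from 0.03 to 0.39 for C4B, lowest without DMSO replicate 4 and highest without DMSO replicate 2. The alternative pathway protease gene CFD had 174.7, 199.2, 179.6 and 105.3 CPM in AF and 192.5, 228.2, 214.0 and 187.7 CPM in DMSO, a log2 fold change of -0.32 ± 0.14 that did not pass (adjusted p = 0.1375, edgeR). Without AF replicate 4, its lowest library, the log2 fold change was -0.16. With no filter on low counts CFD, which had 2700 to 6718 counts, was called lower (adjusted p = 0.0001435, edgeR). That fit had 217000 degrees of freedom, against 14.9 in the main fit, so the spread of CFD itself weighed little there. Of the terminal components C5 and C8G were tested and neither passed, with C5 at -0.05 ± 0.10 (adjusted p = 0.7564).

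**Figure D4:**
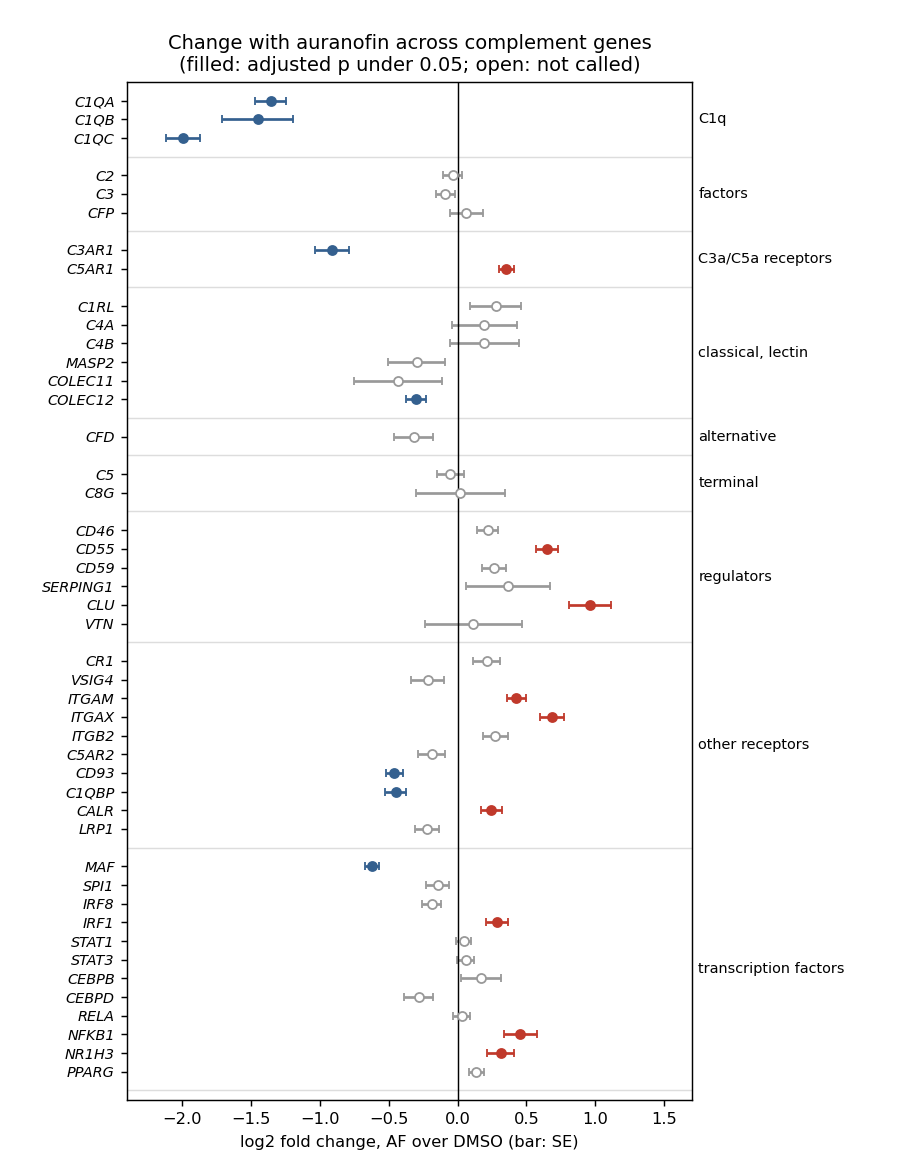
Log2 fold change of AF over DMSO with its standard error (horizontal axis) for the tested complement genes and 12 transcription factors, grouped by role. Filled points passed an adjusted p of 0.05 and open points did not; the C1q chains lie farthest to the left, and CLU lies farthest to the right at 0.96.

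Transcription factors known to act on complement genes were also read from the same test, and of 12 tested 1 fell and 3 rose, where 7.81% of all genes tested fell and 7.62% rose. MAF, a bZIP factor of macrophages, had 73.1, 68.7, 65.3 and 69.8 CPM in AF and 104.1, 109.8, 107.3 and 104.9 CPM in DMSO, a fall of 0.62 ± 0.05 on the log2 scale (adjusted p = 4.775e-06, edgeR). Each AF library was below each DMSO library. The genes for the NF-kB subunit p105/p50 (NFKB1), the interferon regulator IRF1 and the oxysterol receptor LXR alpha (NR1H3) rose by 0.46 ± 0.12, 0.29 ± 0.08 and 0.31 ± 0.10 (adjusted p = 0.02092, 0.02545 and 0.04362, edgeR). Without AF replicate 2, AF replicate 3, DMSO replicate 2 or DMSO replicate 3 none of the 3 passed (adjusted p = 0.05726 to 0.1573), and without DMSO replicate 1 only NFKB1 did. NR1H3 was also lost without DMSO replicate 4 (adjusted p = 0.1015) and with a mean of at least 100 counts (0.05656), and all 3 were lost with library totals alone and in libraries 1 and 4 alone, where NFKB1 was at 0.05 on the log2 scale. Of all genes, 883 were called with library totals alone (median log2 fold change -0.145) and 212 in libraries 1 and 4 alone, against 2705.

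The 5 genes whose log2 CPM over the 8 libraries followed the mean of the C1q chains most closely, among 10981 genes of at least 5 CPM, were FGD2, IL18BP, ARMC6, CNN2 and FCGBP, with Pearson correlations of 0.995, 0.995, 0.994, 0.994 and 0.991. The group difference carries much of such a correlation, and libraries also share their scaling. Taken as deviations from the group means, the correlations were 0.922, 0.961, 0.961, 0.935 and 0.875. These 5 genes were picked by their values in the same 8 libraries, so the deviations are no separate check. How many other genes reach such values was not counted. FCGBP, for an IgG-binding mucin-like protein, had 13.7 ± 1.79 CPM in AF and 27.8 ± 2.82 CPM in DMSO (SD, n = 4 each; log2 fold change -1.03 ± 0.11), and IL18BP, for the decoy that binds interleukin-18, 21.1 ± 2.17 CPM in AF and 36.5 ± 4.28 CPM in DMSO (-0.80 ± 0.11). The other log2 fold changes were -0.59 ± 0.10 for ARMC6, -0.49 ± 0.06 for the actin-binding calponin gene CNN2 and -0.47 ± 0.09 for FGD2, which encodes an exchange factor for the GTPase CDC42. Among the complement genes themselves, deviations correlated at 0.841 between C1QA and C1QC and at 0.84 between C1QC and C3AR1. C1QB, with its few counts, correlated at 0.708 with C1QA and at 0.265 with C1QC.

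**Figure D5:**
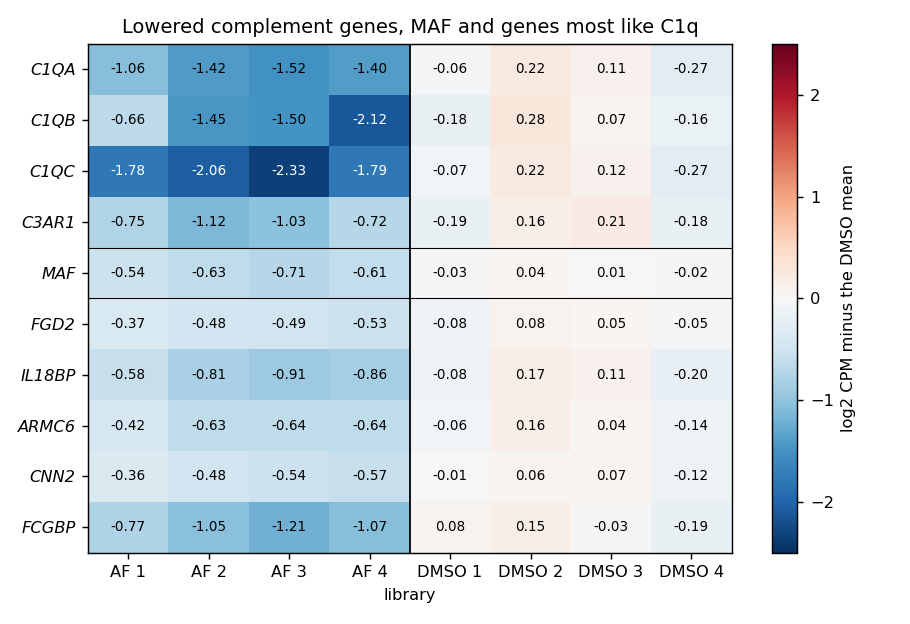
Log2 CPM minus the DMSO mean (colour and printed value) in the 4 AF and the 4 DMSO libraries for the lowered complement genes, MAF and the 5 genes most like the C1q chains. AF values are negative throughout and reach -2.33 for C1QC in AF replicate 3.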

How the data were processed

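The deposited table holds unnormalised read counts for each gene in 8 libraries, made by an automated stranded poly-A method with 250 ng of RNA per the labels' protocols. The submitters' processing notes list STAR 2.6.1d, featureCounts, Subread 1.6.3 and GRCh38. Which annotation was used, whether counting was stranded and how shared reads were assigned is not given in the sources used here. Columns were matched to samples by title.

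The main test was the quasi-likelihood test of edgeR (version 4.0.16, R 4.3.3) after filterByExpr with its defaults and TMM scaling, two-sided, over all 8 libraries without a block, with Benjamini-Hochberg adjustment over 17535 genes and a threshold of 0.05. SE is the absolute log2 fold change divided by the square root of F. On simulated counts for 17535 genes, 59 of 100 genes changed 1.5-fold and 83 of 100 changed 2-fold were recovered, with 11 unchanged genes called. Ratios of 6 gene pairs were tested by exact permutation (scipy 1.17.1). Positions, lengths and overlaps came from GENCODE 29, start sequences from RefSeq. log2 CPM used a prior count of 2.

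No pair of libraries of a group agreed within sampling noise (lowest chi-square per degree of freedom 2.93), so each counted once. This check can find a library that was sequenced again, and it cannot show that libraries came from separate cultures. The set, the lists of other complement genes and markers, the motifs and the tests were chosen with earlier results of these data known. The naming rule took all 9 genes, up to 3 called genes per direction of each list (where none was called, the one with the smallest p) and the 5 genes most like C1q; others are marked. Some genes of these lists are not reported here. Alternatives were other scalings, DESeq2 1.42.0, other filters, protein-coding genes alone, a replicate block, summed libraries, leaving out each library, and libraries 1 and 4 or 2 and 3 alone.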

Additional observations from a re-analysis of the deposited data

How the results depend on the processing

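C1QA, C1QC and C3AR1 kept their direction and their call under all 19 alternatives run, and C1QB and C5AR1 kept their direction under each alternative that tested them. All of these reuse the same 8 libraries, so they are no separate checks. The divisions into libraries 1 and 4 or 2 and 3 were drawn with the counts in view. In libraries 2 and 3 alone C2 and C3 were also called lower. C1QB had too few counts for the filter of a mean of at least 100 counts. The number of complement set genes called higher was 0 in place of 1 with library totals alone and in libraries 1 and 4 of each group alone, where C5AR1 was lost. Over all genes, 2705 were called, against 883 with library totals alone (20.7% of them higher, against 49.4%), 212 in libraries 1 and 4 alone, 5354 in libraries 2 and 3 alone, and 1616 to 2964 with 1 library left out (1616, 1648 and 1660 when DMSO replicate 2, DMSO replicate 3 or AF replicate 3 was missing). Library totals do not adjust for RNA composition, and with them the median log2 fold change of all genes was -0.145, against 0.005. The TMM factor was 0.679 for AF replicate 1 and 1.04 to 1.08 for the other libraries. With TMM scaling without ribosomal RNA rows 2679 genes were called. The degrees of freedom of the edgeR test also differed, at 14.9 in the main fit and 105000 with library totals alone. They were 217000 with no filter on low counts and 119 in libraries 2 and 3 alone. At such high values the spread of a single gene weighs little. The cause of these shifts in the number called was not tested.

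Of the other complement genes 5 were called higher, against 1 with library totals alone, 2 in libraries 1 and 4 alone, 10 in libraries 2 and 3 alone, 8 in DESeq2, 8 with protein-coding genes alone and 4 to 8 with 1 library left out (8 without AF replicate 1). The 3 called lower became 0 in libraries 1 and 4 alone, 7 in libraries 2 and 3 alone, 5 with no filter on low counts and 3 to 4 with 1 library left out. The 3 transcription factors called higher became 0 with library totals alone, 0 in libraries 1 and 4 alone and 0 to 3 with 1 library left out, and the 1 called lower became 3 in libraries 2 and 3 alone and 2 with no filter on low counts, with protein-coding genes alone, with a replicate block and with libraries summed by the stem of their names.

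Values near 0 changed sign without being called: CFP was -0.10 with library totals alone and -0.14 in libraries 1 and 4 alone, and -0.0343 to 0.1669 with 1 library left out. C2 was 0.10 in libraries 1 and 4 alone and -0.0786 to 0.0128 with 1 library left out, and C4B -0.0438 in libraries 2 and 3 alone. The B cell marker CD79B, with 3 to 28 counts, ran from -0.0881 to 0.6709 with 1 library left out. The difference in the log2 ratio of C1QA to C1QB ran from -0.08 (without AF replicate 4) to 0.33 with 1 library left out.

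Replicate numbers are shared by the groups, but nothing says that a number marks a shared culture or day, and deviations of AF and DMSO libraries of equal number correlated at 0.094, 0.129, 0.029 and 0.192, with 3 of the 4 AF libraries correlating best with their own number. A replicate block gave 4188 called genes, 9 other complement genes higher and 6 lower, and the same calls in the complement set. Among the genes named it added CD46, CD59, ITGB2 and CR1 as higher (adjusted p = 0.01206, 0.01269, 0.001119 and 0.03586) and CFD and C5AR2 as lower (0.01219 and 0.0471). Counts limit CFB and C1QB most, and leaving out a library of 4 cannot give an exact p below 0.05714 for a ratio.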

Other observations

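Macrophage markers that are not complement components also moved. LYZ, for lysozyme, had 784.4, 666.9, 715.4 and 813.6 CPM in AF and 1341, 1417, 1642 and 1338 CPM in DMSO, a fall of 0.95 ± 0.09 on the log2 scale (adjusted p = 9.925e-06, edgeR). An annotated gene of the other strand covers 34% of its exon bases, and the strand setting of the counting is not given in the sources used here. MRC1, the mannose receptor gene, had 3.397, 2.61, 2.54 and 2.96 CPM in AF and 6.50, 9.82, 8.77 and 7.11 CPM in DMSO, a log2 fold change of -1.497 ± 0.157 (adjusted p = 2.703e-05). MSR1, for the scavenger receptor that takes up AcLDL, had 141.6, 101.1, 105.9 and 165.4 CPM in AF and 197.9, 210.7, 216.8 and 226.2 CPM in DMSO, a fall of 0.73 ± 0.12 on the log2 scale (adjusted p = 0.001002), with no overlap of the groups. CD14, for the lipopolysaccharide co-receptor, rose by 0.33 ± 0.10 (adjusted p = 0.03132), a call lost without AF replicate 1, 2 or 3 or without DMSO replicate 1, 3 or 4 (adjusted p = 0.05165 to 0.09289). The collagen gene COL3A1, among the fibroblast markers, had 5 to 31 counts per library. Its levels were 0.42, 0.36, 0.16 and 0.195 CPM in AF, against 0.92, 0.54, 0.77 and 1.49 CPM in DMSO. It passed the filter on low counts only through its DMSO libraries, so the filter favoured a lower call. COL3A1 was called lower (log2 fold change -1.71 ± 0.41, adjusted p = 0.01076, edgeR). The call was lost when only libraries 1 and 4 (0.1104) or only libraries 2 and 3 (0.07435) of each group were used. Of the B cell markers only CD79B was tested, and it did not pass (0.20 ± 0.47 on the log2 scale, adjusted p = 0.8201).

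The log2 ratio of C1QA to C1QC spread by an SD of 0.185 over the AF libraries and 0.006 over the DMSO libraries, where counting error alone would give about 0.083 in AF and 0.049 in DMSO. For C3AR1 to C5AR1 the SD was 0.240 in AF and 0.241 in DMSO, beside counting errors of 0.079 in AF and 0.063 in DMSO.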
